A study of Mus musculus with 14 samples.

Results

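Transforming growth factor beta (TGF-beta) signalling was followed through 10 genes in the livers of obese mice with and without bariatric surgery: the ligands Tgfb1, Tgfb2 and Tgfb3, the receptors Tgfbr1, Tgfbr2 and Tgfbr3, the signal transducers Smad2 and Smad3, and the inhibitors Smad7 and Bambi. They were taken by gene symbol from a count table of 25212 genes, and all 10 were found and passed the filter on low counts. None of the 10 passed a false discovery rate (FDR) of 0.05 in any of the 3 comparisons between groups. In the comparisons with gastric bypass livers no gene of the whole table passed it either. Between bile-diverted and obese control livers the genes nearest to that threshold were Tgfb3, at a mean of 3.15 CPM (counts scaled to a common library size) after bile diversion against 1.13 CPM in obese controls, together with Tgfb2, Tgfbr2 and Tgfb1. Each of these 4 had a higher mean after bile diversion, and for Tgfb2, Tgfb3 and Tgfbr2 a single liver carried much of that mean.

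Male C57BL/6 mice were fed a high-fat diet until obese and kept on it, and liver RNA was sequenced from 1 library per mouse. DIO mice (diet-induced obesity, n = 5) had no operation. GB-IL mice (n = 4) had the gallbladder joined to the ileum after ligation of the common bile duct, so that bile bypassed the upper small intestine. RYGB mice (n = 5) had a Roux-en-Y gastric bypass. The labels place every liver 8 weeks after surgery, or at the same time without it. Because DIO mice were not operated on, an effect of bile diversion or bypass cannot be told apart from an effect of having had abdominal surgery.

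The 3 ligands are secreted in a latent form bound to matrix proteins and must be released before they can act. The active dimer is held by the co-receptor Tgfbr3 (betaglycan) and binds the type II receptor Tgfbr2, which phosphorylates the type I receptor Tgfbr1. Tgfbr1 in turn phosphorylates Smad2 and Smad3, which enter the nucleus and act on target genes. Smad7 is induced by the pathway and turns the receptor off, and Bambi is a pseudoreceptor that lacks a kinase. In liver the pathway is best known for driving hepatic stellate cells to become collagen-producing myofibroblasts, and for restraining hepatocyte growth.

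Each liver held between 18223135 and 28656631 counts, with no library much deeper than the others. Livers of the GB-IL group differed among themselves more than those of the other groups, with a biological coefficient of variation of 0.542 against 0.244 in DIO and 0.295 in RYGB. GB-IL liver 1 stood apart: its skeletal muscle markers summed to 1123 CPM, against 0.541 to 3.05 CPM in the other 13 livers, and its gallbladder, gut and pancreas markers to 326 CPM, against 6.33 to 38.3 CPM. GB-IL liver 4 lay among the DIO livers, at -35.3 on a first principal component (48.5% of the variance) on which DIO livers ran from -45.7 to -21.9 and GB-IL livers 1 to 3 from 20.1 to 134. Hepatocyte markers were high in every liver, at 91436 to 147967 CPM. GB-IL fold changes and pathway list medians named here are in some cases also given without GB-IL liver 1 or liver 4. These include cases where leaving the liver out moved the value by more than 1.5 times, or ended or gave a call, and some where it moved less. Liver 4 was singled out because its RNA lay among that of DIO livers, so leaving it out favours larger GB-IL differences. Over all genes, calls against DIO went from 465 to 3572 without it. Calls gained without liver 4 are therefore a description and no support for a difference.

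Promoter sequence is shown for the 3 genes that both separated 2 groups completely in a comparison below and had an entry in RefSeq, Tgfb1 (ENSMUSG00000002603), Tgfb2 (ENSMUSG00000039239) and Smad3 (ENSMUSG00000032402). Sequences are from RefSeq on GRCm38.p6, 5′ to 3′ on the strand of the gene. Tgfb1 lies on chromosome 7 (25687002 to 25705077, plus strand), and its 250 bases before the start span chr7:25686752-25687001. Tgfb2 lies on chromosome 1 (186622792 to 186705989, minus strand), and 83 bases at chr1:186706157-186706239 are shown, since the 167 bases nearest to the start overlap an exon of the antisense gene Gm29491. Smad3 lies on chromosome 9 (63646767 to 63757994, minus strand), with 250 bases at chr9:63757995-63758244. Capitals mark GGGCGG or its reverse complement CCGCCC (the GC box bound by Sp1-type factors) and CAGACA or TGTCTG (a Smad-binding element).
Tgfb1: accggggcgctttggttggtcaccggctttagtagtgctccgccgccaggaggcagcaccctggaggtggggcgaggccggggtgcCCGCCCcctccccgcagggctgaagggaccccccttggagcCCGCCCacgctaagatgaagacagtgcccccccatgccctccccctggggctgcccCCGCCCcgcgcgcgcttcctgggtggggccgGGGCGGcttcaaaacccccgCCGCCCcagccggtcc
Tgfb2: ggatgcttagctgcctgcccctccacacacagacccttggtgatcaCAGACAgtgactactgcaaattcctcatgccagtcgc
Smad3: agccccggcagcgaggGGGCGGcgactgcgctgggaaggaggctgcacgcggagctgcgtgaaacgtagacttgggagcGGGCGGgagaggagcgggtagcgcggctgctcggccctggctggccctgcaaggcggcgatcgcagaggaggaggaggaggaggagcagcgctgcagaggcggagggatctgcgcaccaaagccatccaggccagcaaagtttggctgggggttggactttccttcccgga
The Tgfb1 promoter held 5 GC boxes and that of Smad3 held 2, and GGGCGG on either strand occurred in 32.7% of 32851 mouse promoters of 250 bases. The Tgfb2 stretch held 1 CAGACA, which occurred in 17.1% of promoters. The AP-1 motif TGACTCA (4.46% of promoters) and the palindrome GTCTAGAC (0.167%) were in none of the 6 promoters found for 5 of the 10 genes, which also included Tgfbr1 and Tgfbr2. A match is a run of letters and was not tested for binding.

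The ligands had a fixed order of abundance. Per kb of exon, Tgfb1 stood at 2.40 ± 0.972 CPM per kb (SD, n = 14), Tgfb3 at 0.501 ± 0.420 and Tgfb2 at 0.106 ± 0.0731. In all 14 livers Tgfb1 was above Tgfb3 and Tgfb3 above Tgfb2. Tgfb2 was near the limit of what this depth can count, with 3 to 35 counts per liver, whereas Tgfb1 had 136 to 559. Exons of Tgfb2 and Tgfb3 overlap antisense genes in GENCODE M21 (Gm29491 for Tgfb2, Gm37804 and Gm48008 for Tgfb3), and how strand was treated in counting is not given in the sources used here, so reads from either strand cannot be told apart for them.

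**Figure D1:**
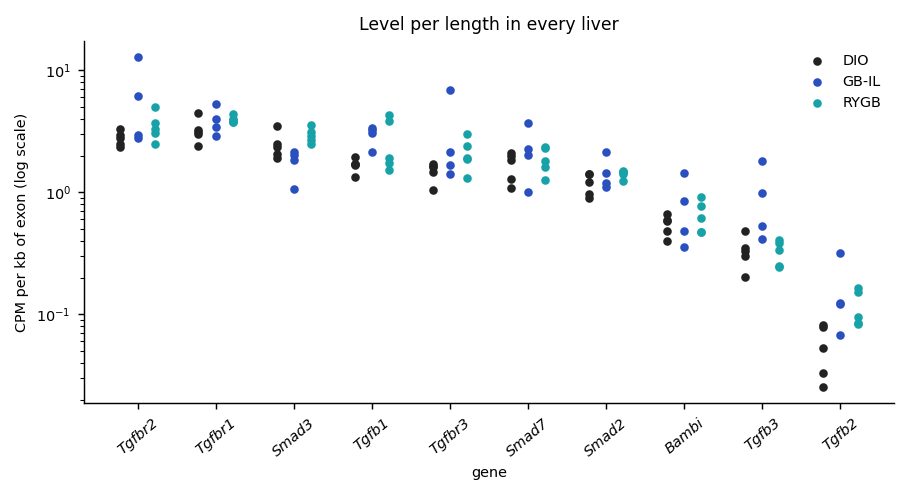
Level of each of the 10 genes in CPM per kb of exon on a log scale, 1 point per liver, with DIO in black, GB-IL in blue and RYGB in teal, genes ordered by their mean. The receptors Tgfbr1 and Tgfbr2 sit highest, Tgfb2 sits lowest in all 3 groups, and GB-IL has the widest spread for Tgfbr2 and Tgfbr3.

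Tgfb1, the most widely expressed of the 3 ligands, was at 8.43, 6.69, 9.82, 8.54 and 8.56 CPM in DIO livers 1 to 5. In GB-IL livers 1 to 4 it was at 17.1, 16.4, 15.6 and 10.8 CPM. All 4 GB-IL livers lay above all 5 DIO livers, a complete separation that 2.67% of the 14252 genes tested showed in this direction. The means were 15.0 ± 2.83 CPM (SD, n = 4) and 8.41 ± 1.12 CPM (n = 5), a log2 fold change of 0.83 ± 0.291 (SE), and the difference did not pass the FDR (adjusted p = 0.118, which here and below is edgeR's quasi-likelihood p after Benjamini-Hochberg adjustment over all genes tested). Without GB-IL liver 1 the log2 fold change was 0.75, so Tgfb1 did not rest on that liver, and without GB-IL liver 4 it was 0.95, which passed the FDR (adjusted p = 0.0361).

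RYGB livers were split for Tgfb1, at 21.8, 7.74, 8.84, 9.72 and 19.4 CPM. Livers 1 and 5 were above every DIO and GB-IL liver, and livers 2, 3 and 4 lay within the DIO range. The log2 fold change against DIO was 0.68 ± 0.276 (adjusted p = 0.530), and it was 0.44 without RYGB liver 1 and 0.52 without RYGB liver 5. GB-IL and RYGB means differed by 0.15 on the log2 scale (95% interval -0.47 to 0.77), by 0.07 without GB-IL liver 1 and by 0.27 without GB-IL liver 4. RYGB livers 1 and 5 also had the most Kupffer cell and macrophage marker RNA of their group, at 1136 and 758 CPM against 458 to 576 CPM in the other 3. In GB-IL livers 1 to 4 that marker RNA was at 706, 1162.5, 2193 and 888 CPM, which is not the order of their Tgfb1 levels. The part of that marker RNA in the Tgfb1 levels was not tested, and in these whole-liver samples more cells of a type and more RNA per cell cannot be told apart.

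Tgfb2, the least abundant ligand, was at 0.471, 0.148, 0.305, 0.453 and 0.192 CPM in DIO livers. RYGB livers had 0.547, 0.888, 0.493, 0.951 and 0.485 CPM, all above every DIO liver. GB-IL livers had 1.84, 0.395, 0.721 and 0.701 CPM, 3 of the 4 above every DIO liver. Such complete separation upward of RYGB from DIO was seen in 1.87% of genes. The log2 fold change against DIO was 1.53 ± 0.474 after GB-IL (adjusted p = 0.0860) and 1.09 ± 0.457 after RYGB (adjusted p = 0.547). Without GB-IL liver 1 the GB-IL value was 0.95 (adjusted p = 0.324), and without liver 4 it was 1.63 (adjusted p = 0.0335). DIO livers had 3 to 9 counts each, which bounds how firmly either value can be read. The filter on low counts removed Tgfb2 when either operation was fitted with DIO alone. It was kept in the main fit through livers with higher counts, so its separation from DIO is a description only.

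Tgfb3 (ENSMUSG00000021253, chromosome 12, 86056745 to 86079041, minus strand) was at 0.680, 1.18, 1.12, 1.64 and 1.01 CPM in DIO livers and at 1.31, 1.13, 0.845, 0.827 and 1.38 CPM in RYGB livers, which overlapped throughout. GB-IL livers had 6.09, 3.33, 1.78 and 1.40 CPM, and all 4 exceeded every RYGB liver. The log2 fold change was 1.48 ± 0.400 against DIO (adjusted p = 0.0571) and 1.51 ± 0.398 against RYGB (adjusted p = 0.0884). RYGB and DIO differed by -0.03 (95% interval -0.86 to 0.79). Complete separation of GB-IL above RYGB was seen in 1.27% of genes.

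GB-IL livers 1 and 2 carried most of the Tgfb3 difference. Without liver 1 the log2 fold change was 0.93 against DIO (adjusted p = 0.226) and 0.97 against RYGB (adjusted p = 0.232). Without liver 4, the liver that lay among the DIO livers, it was 1.71 (adjusted p = 0.00685), and 1.75 against RYGB (adjusted p = 0.00962). The ratio of Tgfb1 to Tgfb3 per kb was 1.88 and 3.30 in GB-IL livers 1 and 2, below the 3.49 to 8.31 of DIO livers, and 5.86 and 5.17 in livers 3 and 4.

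**Figure D2:**
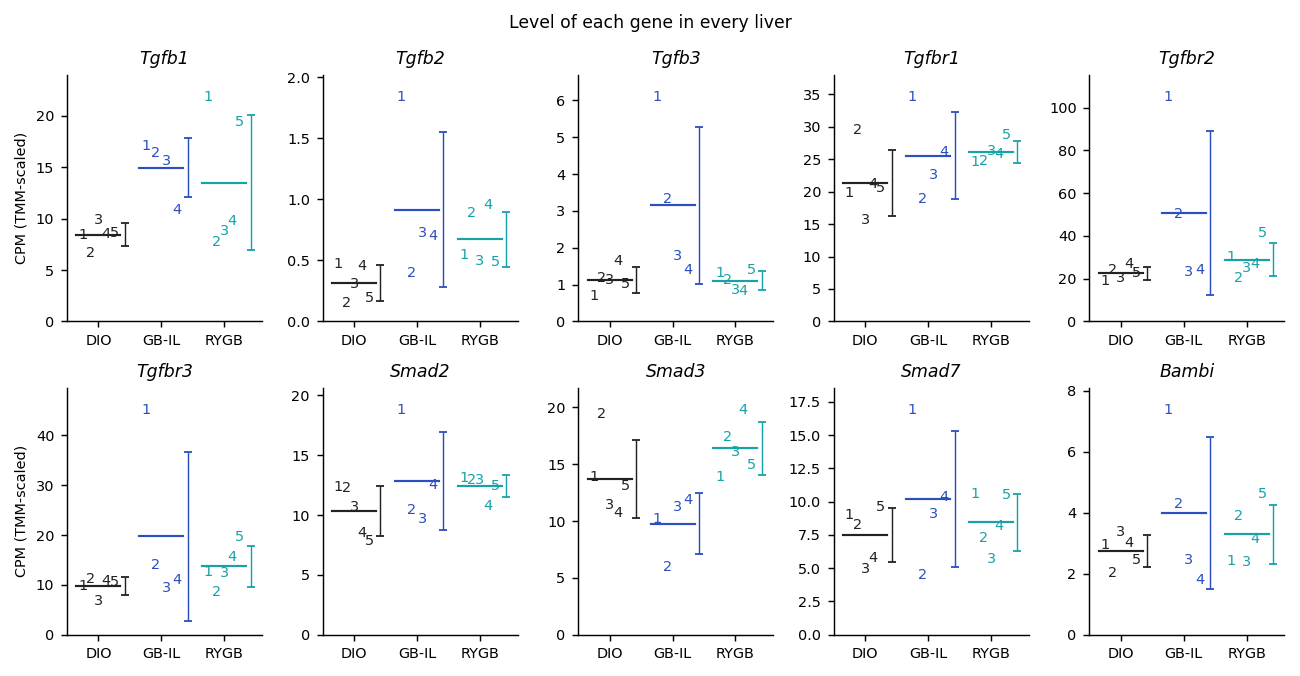
CPM of each of the 10 genes in every liver, each liver drawn as its number, with the group mean as a line and the SD as a bar to its right (DIO n = 5, GB-IL n = 4, RYGB n = 5), each panel on its own linear axis from 0. GB-IL liver 1 is the highest of all 14 livers for 8 of the 10 genes, and the GB-IL livers lie below the RYGB livers for Smad3 only.

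Tgfbr1 and Tgfbr2, the kinase receptors, were the most abundant of the 10 genes per length, at 3.70 ± 0.755 and 4.01 ± 2.74 CPM per kb (SD, n = 14), and their order could not be settled, since Tgfbr2 was above Tgfbr1 in 5 of 14 livers. Tgfbr3 followed at 2.15 ± 1.44 and Bambi at 0.649 ± 0.282 CPM per kb. The ratio of Tgfbr2 to Tgfbr1 was 2.42 in GB-IL liver 1 and 2.12 in liver 2. In the other 12 livers it ran from 0.649 to 1.14.

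Tgfbr1 (ENSMUSG00000007613, chromosome 4, 47353222 to 47414931, plus strand), the type I receptor, was at 15.6 to 29.5 CPM in DIO livers (median 20.5), at 18.9 to 34.6 CPM in GB-IL livers and at 24.5 to 28.8 CPM in RYGB livers. The groups overlapped in every comparison. On the log2 scale GB-IL differed from DIO by 0.26 ± 0.195, RYGB from DIO by 0.29 ± 0.185 and GB-IL from RYGB by -0.03 ± 0.195, with adjusted p-values of 0.405, 0.683 and 0.937. Without GB-IL liver 1 the difference from DIO was 0.07 (adjusted p = 0.866) and that from RYGB -0.22, and without liver 4 that from RYGB was -0.05. Tgfbr1 had the narrowest 95% intervals of the receptors, from -0.15 to 0.68 for GB-IL and from -0.10 to 0.68 for RYGB against DIO.

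Tgfbr2 (ENSMUSG00000032440, chromosome 9, 116084293 to 116175360, minus strand), the type II receptor that binds ligand, was at 19.1, 24.0, 20.4, 26.8 and 22.7 CPM in DIO livers. GB-IL livers had 105, 50.1, 23.0 and 24.1 CPM, and RYGB livers had 30.1, 20.5, 25.2, 27.0 and 41.3 CPM. GB-IL livers 1 and 2 were above every DIO and RYGB liver, and GB-IL livers 3 and 4 were within the DIO range. GB-IL differed from DIO by 1.16 ± 0.367 (adjusted p = 0.0913) and from RYGB by 0.81 ± 0.365 (adjusted p = 0.215) on the log2 scale, and RYGB from DIO by 0.35 ± 0.347 (adjusted p = 0.809). Without GB-IL liver 1 the difference between GB-IL and DIO was 0.52 (adjusted p = 0.391), and without liver 4 it was 1.38 (adjusted p = 0.0129). The difference from RYGB was 0.16 without liver 1 (adjusted p = 0.754) and 1.03 without liver 4 (adjusted p = 0.0476). With voom and sample quality weights GB-IL differed by 0.35 from DIO and by 0.18 from RYGB.

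Tgfbr3 (ENSMUSG00000029287, chromosome 5, 107106570 to 107289629, minus strand), the co-receptor that presents ligand, was at 9.68, 11.2, 6.82, 10.8 and 10.6 CPM in DIO livers and at 12.6, 8.58, 12.4, 15.6 and 19.6 CPM in RYGB livers. GB-IL livers had 45.0, 13.9, 9.29 and 10.9 CPM, so that liver 1 alone was far from the DIO range. The log2 fold change of GB-IL against DIO was 1.01 ± 0.396 (adjusted p = 0.155) with all 4 livers, 0.20 (adjusted p = 0.709) without liver 1 and 1.199 (adjusted p = 0.0419) without liver 4. In RYGB mice 4 of 5 livers exceeded the highest DIO liver, and the log2 fold change was 0.48 ± 0.376 (adjusted p = 0.744). That SE takes in the spread of the GB-IL livers. With RYGB and DIO livers alone the value was 0.49 ± 0.214 (adjusted p = 0.271). An exon of Gm43422 lies over Tgfbr3 exons on the same strand, and such reads could have been lost or shared in the counting.

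The kinase-free pseudoreceptor Bambi (ENSMUSG00000024232, chromosome 18, 3507923 to 3516404, plus strand) was at 2.02 to 3.36 CPM in DIO livers, at 7.35, 4.29, 2.46 and 1.81 CPM in GB-IL livers and at 2.39 to 4.60 CPM in RYGB livers. GB-IL livers held both the highest and the lowest of the 14 values. Its log2 fold change was 0.53 ± 0.360 for GB-IL and 0.26 ± 0.341 for RYGB against DIO (adjusted p = 0.369 and 0.866), and the GB-IL value was 0.04 without liver 1 and 0.76 without liver 4 (adjusted p = 0.105).

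Smad3, a receptor-activated Smad that binds DNA, was the only gene of the 10 with a lower mean in GB-IL than in DIO livers. It was at 13.9, 19.4, 11.4, 10.7 and 13.1 CPM in DIO livers, at 10.2, 5.93, 11.2 and 11.8 CPM in GB-IL livers and at 13.8, 17.4, 16.1, 19.7 and 14.9 CPM in RYGB livers. All 4 GB-IL livers lay below all 5 RYGB livers, a separation that 1.57% of genes showed in this direction. The GB-IL mean was 9.78 ± 2.65 CPM (SD, n = 4) and the RYGB mean was 16.4 ± 2.30 CPM (n = 5), a log2 fold change of -0.74 ± 0.224 (adjusted p = 0.114). Unlike the receptors, Smad3 gave nearly the same value without GB-IL liver 1, at -0.77, and it was -0.85 without liver 4, where it passed the FDR (adjusted p = 0.0273).

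Against DIO, Smad3 was at -0.48 ± 0.223 on the log2 scale after GB-IL (adjusted p = 0.211) and at 0.26 ± 0.208 after RYGB (adjusted p = 0.756). Without GB-IL liver 2, the lowest of all 14 livers, the former was -0.32. Hepatocyte marker RNA was at 106516, 121400, 91436 and 118284 CPM in GB-IL livers 1 to 4. These values overlapped those of RYGB livers, at 114911 to 135179 CPM, and did not follow the order of Smad3 over the GB-IL livers. The part of hepatocyte marker RNA in the Smad3 difference was not tested.

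Smad2 (ENSMUSG00000024563, chromosome 18, 76241580 to 76310963, plus strand), the other receptor-activated Smad, was at 7.84 to 12.4 CPM in DIO livers (median 10.7), at 18.8, 10.4, 9.67 and 12.5 CPM in GB-IL livers and at 10.8 to 13.1 CPM in RYGB livers. Only GB-IL liver 1 stood clear of the rest. Its log2 fold change was 0.31 ± 0.208 for GB-IL and 0.27 ± 0.197 for RYGB against DIO (adjusted p = 0.356 and 0.729), and GB-IL and RYGB differed by 0.05 (95% interval -0.40 to 0.49). Without GB-IL liver 1 Smad2 differed by 0.07 from DIO (adjusted p = 0.873) and by -0.20 from RYGB.

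Smad7 (ENSMUSG00000025880, chromosome 18, 75367529 to 75395935, plus strand), the inhibitory Smad, was at 9.002, 8.27, 4.94, 5.77 and 9.57 CPM in DIO livers, at 16.9, 4.52, 9.08 and 10.3 CPM in GB-IL livers and at 10.6, 7.25, 5.70, 8.15 and 10.5 CPM in RYGB livers. GB-IL livers 1 and 2 held the highest and the lowest of the 14 values. For Smad7 the log2 fold change was 0.44 ± 0.323 for GB-IL and 0.17 ± 0.306 for RYGB against DIO (adjusted p = 0.397 and 0.909), and for GB-IL 0.08 without liver 1 and 0.43 without liver 4. Per kb, Smad3 was the highest Smad in 5 of 5 DIO and 5 of 5 RYGB livers, above Smad7. In GB-IL livers the ratio of Smad7 to Smad3 was 2.03, 0.934, 0.994 and 1.07, higher in livers 1, 3 and 4 than in any DIO or RYGB liver (0.435 to 0.940).

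**Figure D3:**
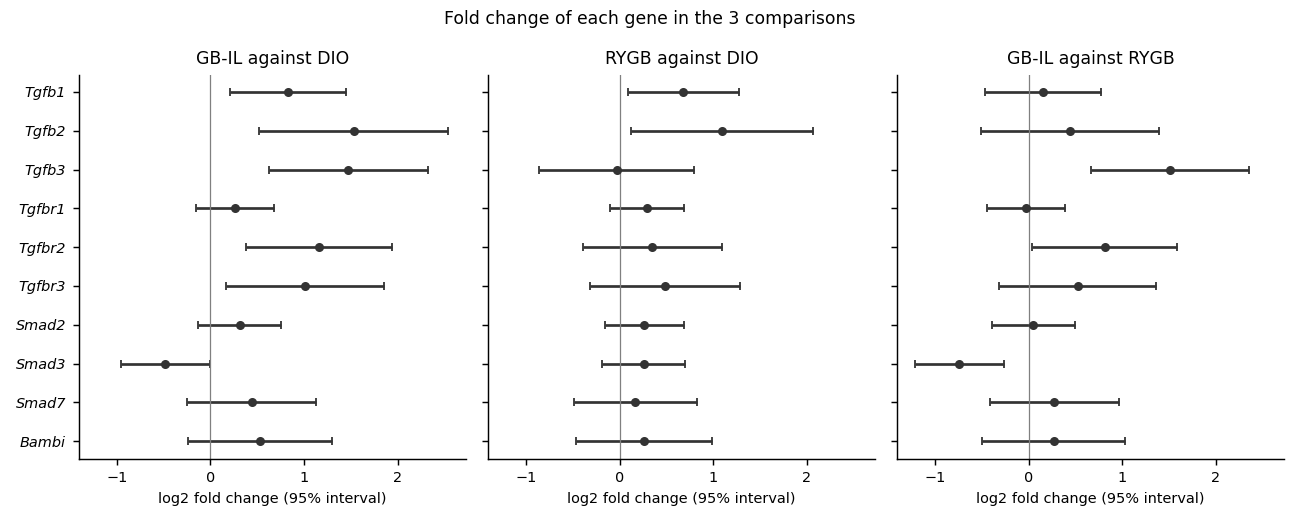
Log2 fold change of each of the 10 genes with its 95% interval from the quasi-likelihood fit of all 14 livers, with 1 panel for each of the 3 comparisons and a line marking 0. Intervals of 5 genes lie above 0 and that of Smad3 below 0 for GB-IL against DIO, those of Tgfb1 and Tgfb2 lie above 0 for RYGB against DIO, and no gene passed the FDR.

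Counted over the 10 genes, GB-IL against DIO gave 0 calls at the FDR in either direction, where 3.15% of all genes tested were called higher and 0.112% lower. At an unadjusted p below 0.05, 5 of the 10 were higher (Tgfb1, Tgfb2, Tgfb3, Tgfbr2 and Tgfbr3), against 16.7% of all genes, and 1 was lower (Smad3), against 6.43%. The median log2 fold change of the 10 was 0.68, and that of all genes 0.04. DESeq2 called 3 of the 10 higher (Tgfb2, Tgfb3 and Tgfbr2, where 7.77% of all genes were). With voom and sample quality weights 0 of the 10 were called, and of all 14252 genes 510 were called higher and 79 lower. The counts turned on single livers. Without GB-IL liver 4, 5 were called higher (the same genes as at the unadjusted p; 15.4% of all genes). Without liver 3, Tgfb3 and Tgfbr2 were called (3.74%). Without liver 1 none was, nor was any of all 14413 genes tested (0 calls), and the median of the 10 was 0.14.

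RYGB against DIO gave 0 calls among the 10, as it did among all genes (0%). Tgfb1 and Tgfb2 were higher at an unadjusted p below 0.05, where 5.35% of all genes were. The median log2 fold change was 0.28 against 0.01 for all genes. DESeq2 also called 0 of the 10, with 64 higher and 33 lower of all 14252 genes. In contrast, voom with sample quality weights called Tgfb2 and Smad3 higher (6.08% of all genes). GB-IL and RYGB were compared with the same 5 DIO livers, so their values against DIO are not independent of each other. The SE for RYGB against DIO also takes in the spread of the GB-IL livers. For Tgfbr2 it was 0.347, and 0.176 with the compared groups alone (adjusted p = 0.320). For Tgfb1 it was 0.276 and 0.281.

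GB-IL against RYGB gave 0 calls among the 10 and among all genes (0%). At an unadjusted p below 0.05, Tgfb3 and Tgfbr2 were higher in GB-IL (15.3% of all genes) and Smad3 was lower (6.77%). DESeq2 called Tgfb3 higher (4.59%) and Smad3 lower (1.34%). With voom and sample quality weights 0 of the 10 were called, and of all 14252 genes 111 were called higher and 4 lower. Without GB-IL liver 4, Tgfb3 and Tgfbr2 were called higher (13.4%) and Smad3 lower (8.09%). The median log2 fold change was 0.27, against 0.03 for all genes, and -0.17 without GB-IL liver 1.

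Cell type markers also differed between the GB-IL livers, in an order that was not the same for all lists. Markers of recruited macrophages and monocytes summed to 822, 338, 138 and 27.2 CPM in GB-IL livers 1 to 4, against 18.2 to 32.9 CPM in DIO and 27.3 to 73.8 CPM in RYGB livers. Tgfb1, Tgfb3 and Bambi had the same order over all 4 GB-IL livers. Tgfbr2, Tgfbr3 and Smad2 had it over GB-IL livers 1, 2 and 3 but not liver 4. Tgfb2, Tgfbr1, Smad3 and Smad7 did not have it. Cholangiocyte markers summed to 321, 260, 218 and 58.1 CPM in GB-IL livers and to 30.5 to 65.8 CPM in DIO livers. For these lists 4 of 8 and 3 of 5 tested markers passed the FDR upward against DIO, as did 3 of 9 Kupffer cell and macrophage markers and 3 of 4 neutrophil markers, against 3.15% of all genes called higher. Those calls no longer held without GB-IL liver 1, in a fit that called 0 of 14413 genes. They were likewise lost without GB-IL liver 2 or any single DIO liver, where 0 genes were called. Kupffer cell and macrophage markers summed to 706, 1162.5, 2193 and 888 CPM in GB-IL livers 1 to 4. Neutrophil markers summed to 99.7, 47.0, 310 and 6.57 CPM in the same livers. The part of these cells in the levels of the TGF-beta genes was not tested.

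Stellate cell markers, from the cells best known to answer TGF-beta, summed to 609 CPM in GB-IL liver 1 and to 176 to 319 CPM in GB-IL livers 2 to 4, against 273 to 356 CPM in DIO livers. RYGB liver 5 had 554 CPM, the most of its group, together with the most Tgfbr2 and Tgfbr3 RNA of its group. Gene by gene, 4 of 9 stellate markers were above 0 for GB-IL against DIO (median -0.03). Of these 9, 1 passed the FDR upward, Des (desmin), where 3.15% of all genes did. The call was lost without GB-IL liver 1 or 2 or any single DIO liver, where 0 genes were called. GB-IL liver 1 also held the skeletal muscle marker RNA given above. The part of that tissue in the Des call and in the stellate sum of liver 1 was not tested. Against RYGB the median was -0.77, with 5 of 9 lower (6.77% of all genes) and 1 higher (15.3%) at an unadjusted p below 0.05. Myofibroblast markers were above the DIO range in 3 of the 4 GB-IL livers, at 134, 20.4, 142 and 128 CPM against 36.6 to 76.0 CPM in DIO livers. In RYGB livers they ran from 68.9 to 256 CPM, with a list median against DIO of 1.095 on the log2 scale after RYGB and 0.81 after GB-IL. Sinusoidal endothelial markers were at 278 to 395 CPM in GB-IL, 264 to 358 CPM in DIO and 232 to 649 CPM in RYGB livers. Platelet and megakaryocyte markers, from a source of stored Tgfb1 protein, were at 18.1, 17.1, 10.1 and 2.66 CPM in GB-IL livers, 4.04 to 7.12 CPM in DIO livers and 3.03 to 16.8 CPM in RYGB livers. RYGB liver 5 held the highest RYGB value of these 3 lists. Mesothelial markers reached 23.3 CPM in GB-IL liver 1, against 1.06 to 16.0 CPM elsewhere. T and NK cell markers ran from 1.68 to 14.2 CPM and B and plasma cell markers from 2.45 to 22.8 CPM over the 14 livers. Defining markers at 0 in every liver of a group were Ly6g in DIO and Cdx2, Ckm and Myh4 in RYGB.

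**Figure D4:**
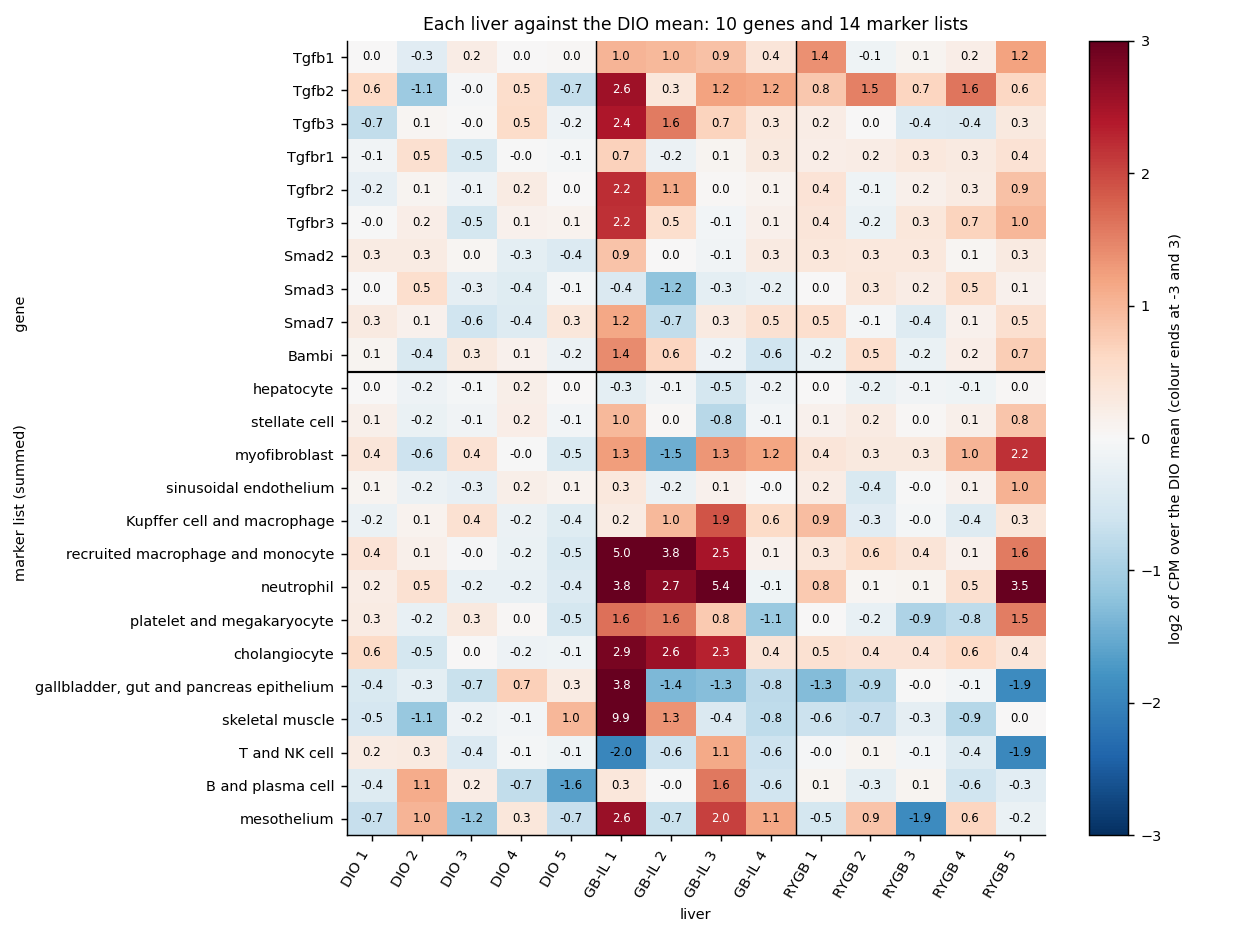
Log2 of each liver's CPM over the DIO mean for the 10 genes (top) and for the summed markers of 14 cell type lists (bottom), 1 column per liver, the value printed in each cell, with colours ending at -3 and 3. GB-IL liver 1 is high for 9 of the 10 genes and for recruited macrophage, cholangiocyte, gut and pancreas and skeletal muscle markers, while in GB-IL liver 4 the recruited macrophage and neutrophil lists are near the DIO mean.

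Genes that store and release the ligands were examined as a list of 13, of which 12 were tested. Against DIO, 1 passed the FDR in GB-IL (3.15% of all genes were called higher), Thbs1, which encodes thrombospondin 1, an activator of latent TGF-beta. It was at 0.458 to 2.51 CPM in DIO livers and at 26.2, 3.73, 3.05 and 2.73 CPM in GB-IL livers, all 4 above every DIO liver (as for 2.67% of genes), and rose by 2.97 ± 0.721 on the log2 scale (adjusted p = 0.0391). That call was lost without GB-IL liver 1, where the value was 1.47 (adjusted p = 0.200) and 0 of 14413 genes were called. It was also lost without liver 2, at 3.22 (adjusted p = 0.0598), and without any single DIO liver, where 0 genes were called. The median of the list was 0.80, and 0.34 without liver 1. Without GB-IL liver 4, 5 of 12 were called, Ltbp1, Ltbp3, Lrrc32 and Fbn1 beside Thbs1, where 15.4% of all genes were called higher. At an unadjusted p below 0.05 with all livers, 6 of 12 were higher, against 16.7% of all genes.

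RYGB against DIO gave 0 of 12 calls on this list (0% of all genes), and the 2 with the smallest p were Emilin1 and Lrrc32. Emilin1, a matrix protein that restrains processing of the ligand precursor, was at 0.59 ± 0.251 (adjusted p = 0.547). Lrrc32, which tethers latent ligand to cells, was at 0.87 ± 0.388 (adjusted p = 0.551). GB-IL against RYGB gave 0 as well (0% of all genes). Thbs1 was at 1.83 ± 0.683 (adjusted p = 0.158) and Ltbp3, a latent ligand binding protein, at 0.89 ± 0.367 (adjusted p = 0.184). For Thbs1 GB-IL liver 1 alone was above every RYGB liver (1.18 to 4.95 CPM), and without it the value was 0.33 (adjusted p = 0.736). Without liver 1 Ltbp3 was at 0.26 (adjusted p = 0.608), and without liver 4 Thbs1 was at 2.12 (adjusted p = 0.0400), where 13.4% of all genes were called higher.

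No gene of the 8 accessory receptors and other Smads passed the FDR in any comparison. Of all genes 3.15% were called higher and 0.112% lower for GB-IL against DIO, and 0% in the comparisons with RYGB. For GB-IL against DIO the smallest p-values were those of Acvrl1, an endothelial type I receptor, at 0.67 ± 0.311 (adjusted p = 0.211), and Smad1, a Smad of the BMP arm, at 0.49 ± 0.251 (adjusted p = 0.251), or 0.06 without liver 1. Smad5, likewise of the BMP arm, was at 0.28 ± 0.143 for RYGB against DIO (adjusted p = 0.608) and at -0.28 ± 0.152 for GB-IL against RYGB (adjusted p = 0.287). The list medians were 0.12 for GB-IL and 0.16 for RYGB against DIO, and the GB-IL median was -0.06 without liver 1 and 0.29 without liver 4. At an unadjusted p below 0.05, 1 of 8 was higher in GB-IL than in DIO, against 16.7% of all genes.

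Of 10 negative regulators beside Smad7 and Bambi, none passed the FDR in any comparison. Of all genes 3.15% were called higher and 0.112% lower for GB-IL against DIO, and 0% in the comparisons with RYGB. At an unadjusted p below 0.05, 2 of the 10 were higher for GB-IL against DIO (16.7% of all genes). Tgif1, a corepressor that binds Smads, came nearest for GB-IL against DIO. It was at 41.7, 25.4, 17.2 and 17.6 CPM in GB-IL livers and at 9.62 to 17.1 CPM in DIO livers, so that all 4 GB-IL livers lay above all DIO livers, as they did for 2.67% of genes. For Tgif1 the log2 fold change was 1.03 ± 0.274 (adjusted p = 0.0544), 0.68 without liver 1 and 1.16 without liver 4 (adjusted p = 0.0107). In the fit without liver 4, 15.4% of all genes were called higher. Skil, a corepressor that is itself induced by TGF-beta, was at 1.08 ± 0.366 (adjusted p = 0.109) for GB-IL and 0.73 ± 0.348 (adjusted p = 0.578) for RYGB against DIO, and the GB-IL value was 0.67 without liver 1 and 1.29 without liver 4 (adjusted p = 0.0207). Ski, its relative, was at 0.36 ± 0.216 for RYGB (adjusted p = 0.661). In GB-IL against RYGB, Tgif1 was at 0.63 ± 0.273 (adjusted p = 0.204), or 0.27 without GB-IL liver 1, and Smurf2, a ubiquitin ligase that acts with Smad7, was at -0.42 ± 0.200 (adjusted p = 0.235).

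Of 18 genes known as TGF-beta targets, 17 were tested, and 2 passed the FDR upward for GB-IL against DIO (3.15% of all genes), Spp1 and Lox. At an unadjusted p below 0.05, 8 of 17 were higher, against 16.7% of all genes. Spp1 (osteopontin, also on the cholangiocyte list) was at 286, 216, 205 and 49.5 CPM in GB-IL livers and at 25.1 to 55.3 CPM in DIO livers, a rise of 2.36 ± 0.366 on the log2 scale (adjusted p = 0.0278). Lox (lysyl oxidase, which cross-links collagen and is also on the myofibroblast list) was at 5.25, 0.395, 1.02 and 1.03 CPM in GB-IL livers against at most 0.419 CPM in DIO livers, and rose by 3.79 ± 0.873 (adjusted p = 0.0340). For each, 3 of the 4 GB-IL livers were above every DIO liver. Neither call held without GB-IL liver 1, where Spp1 was at 2.08 (adjusted p = 0.0599) and Lox at 2.57 (adjusted p = 0.129). That fit called 0 of 14413 genes. Both calls were also lost without GB-IL liver 2, with Spp1 at 2.27 and Lox at 4.11 (adjusted p = 0.0581 each). Leaving out any single DIO liver gave 0 calls as well. The median of the list was 0.81, and 0.47 without liver 1. Ctgf and Col1a2 on this list were also in a stellate cell panel that the study drew from these livers, so they are no independent choice.

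For RYGB against DIO 0 of 17 targets passed (0% of all genes). Postn (periostin) was at 1.74 ± 0.617 (adjusted p = 0.473), with 117 CPM in RYGB liver 5 and 11.8 to 22.3 CPM in the other RYGB livers. RYGB liver 5 was highest of its group for Postn, Tgfbr2 and Tgfbr3. Postn was at -2.45 ± 0.690 for GB-IL against RYGB (adjusted p = 0.1003), and Spp1 at 1.91 ± 0.362 (adjusted p = 0.0552). Without GB-IL liver 4 both passed the FDR, Postn at -3.19 (adjusted p = 0.0123) and Spp1 at 2.22 (adjusted p = 0.00025). In that fit 13.4% of all genes were called higher and 8.09% lower.

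The neighbouring activin and BMP arm gave 19 tested genes of 20, and 2 rose for GB-IL against DIO (3.15% of all genes). At an unadjusted p below 0.05, 3 were higher (16.7%) and 2 lower (6.43%). Fst (follistatin, which binds and blocks activins) was at 33.3, 51.5, 7.59 and 1.88 CPM in GB-IL livers and at 0.396 to 3.35 CPM in DIO livers, a rise of 3.72 ± 0.748 (adjusted p = 0.0278). Id1, a BMP target, was at 44.3, 10.5, 3.22 and 6.94 CPM against 1.48 to 5.29 CPM, a rise of 2.37 ± 0.609 (adjusted p = 0.0474). For each, 3 of the 4 GB-IL livers exceeded all DIO livers. Without GB-IL liver 1, Fst was at 3.52 (adjusted p = 0.0709) and Id1 at 1.13 (adjusted p = 0.247), and 0 of 14413 genes were called. Both calls were also lost without liver 2, with Fst at 2.99 (adjusted p = 0.0633) and Id1 at 2.52 (adjusted p = 0.0771). Leaving out any single DIO liver gave 0 calls as well. The list median was 0.09, and -0.14 without liver 1. Hamp (hepcidin, the iron hormone that BMP signalling induces) was at 168 to 3198 CPM in GB-IL, 41.5 to 632 CPM in DIO and 0.601 to 45.7 CPM in RYGB livers. Its log2 fold change was 5.87 ± 1.17 for GB-IL against RYGB (adjusted p = 0.0645) and -3.82 ± 1.05 for RYGB against DIO (adjusted p = 0.348). Bmp7 was at -1.24 ± 0.372 for RYGB against DIO (adjusted p = 0.387) and Id1 at 2.58 ± 0.612 for GB-IL against RYGB (adjusted p = 0.0820), or 1.34 without GB-IL liver 1. Without GB-IL liver 4, the values against RYGB passed the FDR for Hamp (6.21, adjusted p = 0.00543) and Id1 (2.82, adjusted p = 0.0101), where 13.4% of all genes were called higher.

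**Figure D5:**
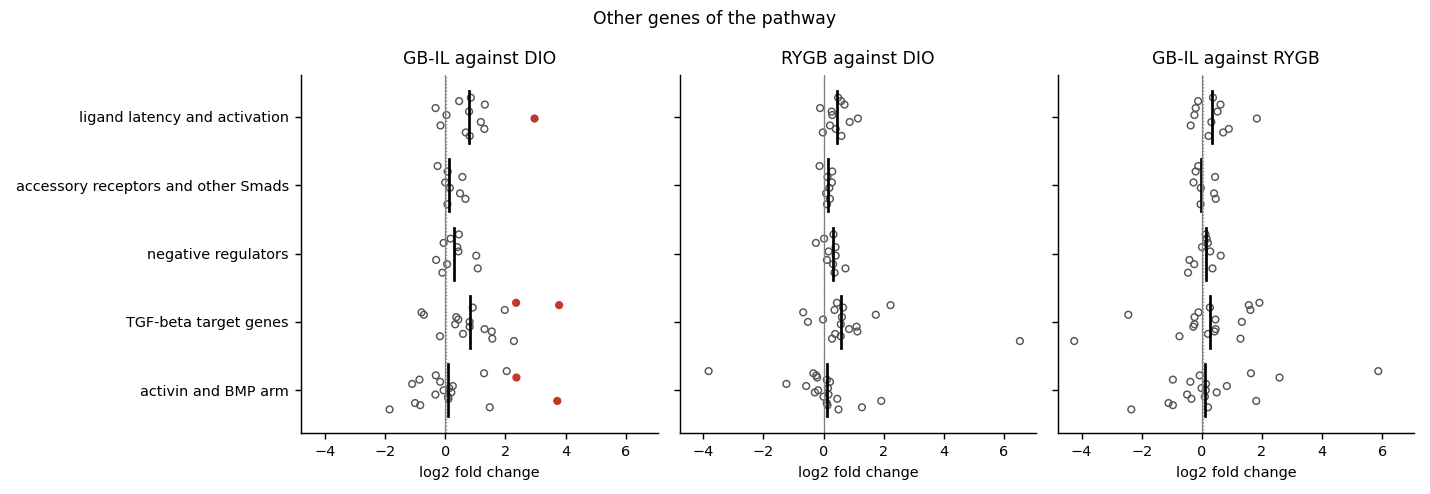
Log2 fold change of every tested gene on the 5 lists of other pathway genes, 1 circle per gene, filled red where it passed the FDR of 0.05, with the list median as a black bar, 0 as a grey line and the median of all genes as a dotted line. The 5 filled circles (Thbs1, Spp1, Lox, Fst and Id1) are all on the higher side of GB-IL against DIO.

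The 3 genes whose log2 CPM followed each of the 10 most closely over the 14 livers were named as a description, having been chosen for their correlation. For Tgfb1 they were Cmtm3, Psat1 and Ly6d, with Pearson's r of 0.92, 0.90 and 0.90 and Spearman's rho of 0.89, 0.61 and 0.82. For Tgfb3 they were Rdh13, Fxyd6 and H2afy2 (r of 0.97, 0.96 and 0.95, rho of 0.87, 0.90 and 0.84), and for Tgfb2 they were Loxl1, Eln and C7 (r of 0.87 each, rho of 0.81, 0.76 and 0.85). Loxl1 and Eln encode elastic fibre components. The 2 livers farthest from the median carried part of this: over the other 12 livers r was 0.84 for Rdh13 with Tgfb3, 0.80 for Loxl1 with Tgfb2 and 0.87 for Cmtm3 with Tgfb1, but 0.67 for Eln and 0.66 for C7 with Tgfb2. Over all 30 pairs of the 10 genes and their nearest genes it ran from 0.61 to 0.93.

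Among the receptors, Tgfbr2 was followed by Ets2, D16Ertd472e and Pdgfra (r of 0.97, 0.95 and 0.95, rho of 0.77, 0.76 and 0.83), Pdgfra being a receptor of fibroblast-lineage cells, and r with Ets2 was 0.84 over 12 livers. Tgfbr3 was followed by Hdc, Phf13 and Cblb (r of 0.96, 0.95 and 0.94, rho of 0.79, 0.86 and 0.75), Tgfbr1 by Plagl2, Abl2 and Mtmr12 (r of 0.93, 0.93 and 0.92, rho of 0.85, 0.92 and 0.88) and Bambi by Sart3, Cep170b and Foxp4 (r of 0.91, 0.90 and 0.90, rho of 0.90, 0.72 and 0.91). Smad3 was followed by Rassf8, Plekha5 and Gm17132 (r of 0.95, 0.95 and 0.94, rho of 0.89, 0.93 and 0.96), and r was 0.88, 0.86 and 0.93 over 12 livers. Smad2 was followed by Stxbp5, Snx7 and Id4 (r of 0.89, 0.85 and 0.84, rho of 0.63, 0.73 and 0.80), and Smad7 by Anln, Eif5a2 and Slit3 (r of 0.88, 0.83 and 0.83, rho of 0.83, 0.85 and 0.80). The r over 12 livers was 0.61 for Snx7 and 0.63 for Id4 with Smad2, 0.66 for Cblb with Tgfbr3 and 0.67 for Slit3 with Smad7. No gene was among the 3 nearest of more than 1 of the 10.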

How the data were processed

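Counts per gene were taken as the authors deposited them, whole numbers without normalization, 1 column per liver. The authors aligned HiSeq reads to mm10 with TopHat 2 and counted them with HTSeq. For tool versions, gene annotation and strandedness nothing is given in the sources used here. Which of the 2 library kits in the labels made which library is not said, so no model held a kit term. Groups and liver numbers came from the sample titles.

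Counts were fitted in R 4.3.3 with edgeR 4.0.16 (quasi-likelihood, TMM, filterByExpr, 1 model of 14 livers, Benjamini-Hochberg over 14252 genes, FDR 0.05), after a test on simulated data. Alternatives used DESeq2 1.42.0, voom in limma 3.58.1, size factors in place of TMM, no filter, a replicate block, the compared groups alone, and each liver left out. CPM per kb used exon lengths from GENCODE M21 (GRCm38), and log2 CPM a prior count of 2.

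The 10 genes, the pathway lists and the marker lists were chosen with earlier results of these data known. Pathway genes were named if past the FDR (at most 4 per list and comparison), otherwise the 2 of smallest p, with the 3 genes of highest r for each of the 10. Of the genes so chosen, 2 are not reported here. Same-numbered livers did not deviate together (r from -0.381 to 0.381 over 13 pairs, 2 above 0.1), so liver numbers were not used as pairs. P-values measure the spread between single livers, pooled over the groups in a fit.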

Additional observations from a re-analysis of the deposited data

Results flagged for a closer look

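Tgfbr3 in GB-IL liver 1, at 45.0 CPM, was farther from the other 3 GB-IL livers than Dixon's 95% criterion allows, the gap making up 0.870 of the range of the group. It was the 1 such value among 30 groups of livers checked for the 10 genes, and chance alone flags about 1 group in 20. The same liver carried the skeletal muscle and pancreas marker RNA given above, whose part in the Tgfbr3 level was not tested.

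Smad3 was below the DIO mean in all 4 GB-IL livers and above it in all 5 RYGB livers. The difference between the operations, -0.74 on the log2 scale, did not pass the FDR (adjusted p = 0.114 by edgeR's quasi-likelihood test). Directions set against the DIO mean share the DIO livers, of which 1 had 19.4 CPM.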

How the results depend on the processing

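Over 598 alternative values of the 30 fold changes of the 10 genes, 564 kept their direction and their side of the FDR, 17 turned direction and 17 newly passed. Those that turned were mostly near 0. With voom and sample quality weights Bambi was at -0.0047 for GB-IL and Smad7 at -0.0306 for RYGB against DIO, and Tgfbr3, Smad2 and Bambi were at -0.15, -0.17 and -0.19 for GB-IL against RYGB. Leaving out 1 liver, Tgfb3 for RYGB against DIO ran from -0.17 to 0.14. For GB-IL against RYGB the ranges were -3.3e-05 to 0.39 for Tgfb1, -0.14 to 0.67 for Tgfb2, -0.22 to 0.0777 for Tgfbr1, -0.28 to 0.75 for Tgfbr3, -0.20 to 0.16 for Smad2, -0.0901 to 0.50 for Smad7 and -0.22 to 0.50 for Bambi. In these, leaving out GB-IL liver 1 turned Tgfb2, Tgfbr3, Smad2, Smad7 and Bambi. The cause was not tested.

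Over all genes, GB-IL against DIO called 465 genes (449 higher, 16 lower), 1292 with DESeq2 and 0 with the compared groups alone, a fit that dropped Tgfb2. Leaving out 1 liver gave 0 to 3572. It was 0 when a DIO liver (each of the 5), or GB-IL liver 1 or 2, was left out, 294 without RYGB liver 3 and 3572 without GB-IL liver 4. RYGB against DIO called 0, 97 with DESeq2, 1690 with voom, 33 with the compared groups alone (a fit that also dropped Tgfb2), and 0 to 5 leaving out 1 liver. GB-IL against RYGB called 0, 51 with no filter, 845 with DESeq2, 115 with voom, and 0 to 3120 leaving out 1 liver. With a replicate block GB-IL against DIO called 1 gene, and Smad2 for GB-IL against RYGB was at -0.0296. That block called none of the 10 genes. Counting depth limits Tgfb2 most, with 3 counts in its lowest liver.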
